A study of Mus musculus with 16 samples.

Results

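The immediate early genes described here are 10 genes that neurons transcribe quickly after a stimulus: Fos, Fosb, Junb, Egr1, Egr2, Egr3, Nr4a1, Npas4, Arc and Dusp1. They were found by symbol among the 27674 genes of an Agilent mouse array, and all 10 were present, with 12 probes. Cerebella of 4 Npc1-/- and 4 wild-type mice, 3 weeks old and of strain BALB/cNctr-Npc1m1N/J, were compared. The Npc1-/- mice were bred in house from purchased heterozygous carriers, and their Npc1m1N allele disables Npc1, a lysosomal membrane protein needed for cholesterol export, in every cell of the body. The wild-type mice (Npc1+/+) carried no mutant allele, the labels name no treatment, and the cerebella were snap-frozen. A second set of 8 Illumina arrays of the same study identifies probes by number without gene names and was not used here.

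Immediate early genes need no new protein synthesis for their transcription. In neurons, calcium entry and growth factor signals reach factors that already sit on or near their promoters, chiefly CREB, which binds the cyclic AMP response element (CRE), and serum response factor, which binds the CArG box. The transcripts rise within minutes and decay fast, so their level in a frozen brain reflects the time just before death as well as any lasting state, and they are known to respond to handling, anaesthesia and the delay of dissection. In the cerebellum, granule cells are the most abundant neurons and express many of them.

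Promoters are shown, for their CRE half-sites, of the 4 members most like the mean of the other members across the arrays. That likeness was taken with each genotype's mean removed, and differs from the relations with Fos given below. RefSeq promoter windows (GRCm38.p6) were matched for 7 of the 10 genes, not for Egr1, Egr3 and Arc. Each line gives the 250 bases before the transcription start, read on the gene's strand, with every TGACG (the CRE half-site), on either strand, in capitals. The windows are chr12:85473640-85473889 (plus strand) for Fos, chr15:101266596-101266845 (plus) for Nr4a1, chr19:4989972-4990221 (minus) for Npas4 and chr17:26508473-26508722 (minus) for Dusp1.
Fos: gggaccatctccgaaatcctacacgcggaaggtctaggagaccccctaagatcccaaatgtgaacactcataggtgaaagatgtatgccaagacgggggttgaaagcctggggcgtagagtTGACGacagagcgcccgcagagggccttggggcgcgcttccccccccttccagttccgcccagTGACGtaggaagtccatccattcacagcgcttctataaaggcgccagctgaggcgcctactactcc
Nr4a1: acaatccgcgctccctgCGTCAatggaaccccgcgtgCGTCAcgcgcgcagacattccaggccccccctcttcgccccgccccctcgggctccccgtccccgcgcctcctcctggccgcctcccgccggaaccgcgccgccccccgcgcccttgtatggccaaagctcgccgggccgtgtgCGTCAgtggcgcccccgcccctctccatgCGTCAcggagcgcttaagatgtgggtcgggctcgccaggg
Npas4: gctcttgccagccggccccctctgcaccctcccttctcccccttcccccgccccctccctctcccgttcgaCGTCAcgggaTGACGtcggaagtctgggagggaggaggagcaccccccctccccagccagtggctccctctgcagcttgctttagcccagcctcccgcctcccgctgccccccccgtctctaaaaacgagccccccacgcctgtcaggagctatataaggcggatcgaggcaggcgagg
Dusp1: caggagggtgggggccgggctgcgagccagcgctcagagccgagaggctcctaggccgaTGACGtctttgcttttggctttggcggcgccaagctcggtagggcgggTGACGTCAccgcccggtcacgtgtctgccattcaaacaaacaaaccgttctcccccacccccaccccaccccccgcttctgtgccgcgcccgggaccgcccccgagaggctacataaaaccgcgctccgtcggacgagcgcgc

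Fos carried 2 half-sites, the nearer one 66 to 62 bases before the start, and Nr4a1 carried 4. Npas4 had 2, at 179 to 175 and 169 to 165 bases before the start, and Dusp1 had 3, of which 2 overlap as the palindrome TGACGTCA. All 7 genes with a window had at least 1 half-site, and Fosb and Junb had 1 each. Egr2 has 5 annotated windows, 3 of which held 2 half-sites and the others none. Each of the other genes has 1 window. Counts for these genes are by gene, while the shares over all promoters that follow are by window. Of all 32851 promoter windows of this length, 17.8% held a TGACG and 1.55% the full TGACGTCA, which among these genes was found in Dusp1 alone. An exact CArG box (CCWWWWWWGG, W being A or T) was found in Egr2 alone and in 1.47% of all windows. Sites beyond these windows, or with a mismatch, were not searched for any motif, so their absence is not shown. The early growth response motif GCGNGGGCG was found in 2 of the 7 genes (Fosb and Nr4a1) and in 4.7% of windows, and the AP-1 motif TGANTCA in 0 of the 7 and in 6.75% of windows. These are matches of letters in these windows, not measured binding, and both strands were searched for each motif.

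Signals are given as log2 of the processed signal over the array's 75th percentile, so 0 is the level of a probe at that percentile and a step of 1 is a doubling. Differences are between arrays for the same probe. The signals of different genes were set against each other only to choose which genes of a list to name. For cell type markers they were also added up: a summed signal is the log2 of a list's signals added on an array, so its brightest markers weigh most. Npc1 itself was at -2.47 ± 0.12 (SD, n = 4) in Npc1-/- and -0.48 ± 0.12 in wild-type cerebellum, a log2 difference of -1.99 ± 0.10 (SE, adjusted p = 0.00045, limma), the direction the labels give. On 7 arrays 25955 to 28137 probes were well above background; wild-type replicate 2 had 22182, and its dimmest well-measured probe lay at -3.90 against -6.04 to -5.36 elsewhere. The first principal component (47% of the variance) placed wild-type replicate 3 farthest from the rest, at 73; wild-type replicate 4 (23) and Npc1-/- replicate 4 (9.71) shared its sign, and the other 5 arrays lay between -36.5 and -10.4. The arrays lay on 4 slides: wild-type replicate 4 was alone on slide 1, each genotype had 1 array on slides 2 and 4, and on slide 3 there were 2 Npc1-/- arrays beside 1 of wild type. The number of arrays, 4 per genotype, limits the precision of every value.

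None of the 10 genes passed the test between genotypes, where 0.767% of the 17984 genes tested did, 0.734% higher and 0.0334% lower (limma, Benjamini-Hochberg over all genes, threshold 0.05). Of the 10, 8 had a higher mean in Npc1-/- cerebellum, against 46.6% of all genes, and the median difference was 0.42 (log2), against -0.02 over all genes. At an unadjusted p under 0.05, 3 were higher (Junb, Egr1 and Egr2) and 0 lower, beside 5.09% of all genes higher and 7.4% in either direction. The groups did not overlap for 2, Egr1 and Egr2, both higher in Npc1-/-, beside 2.96% of all genes in that direction and 4.92% in either. The median difference of the 10 genes was 0.30 without wild-type replicate 4, 0.35 in a fit blocked by slide, and 0.33 without the 3 arrays on the positive side of the principal component. Within slides 2, 3 and 4 it was 0.22, 0.68 and -0.43, with 8, 9 and 3 genes higher in Npc1-/-, so the direction was not shared by all slides. Slide 4 held 1 array of each genotype and gave no Junb difference. Within scan days 1 and 2 the median was 0.25 and 0.68, with 8 and 9 genes higher, where day 2 holds the same arrays as slide 3. By probe, 0 of the 11 probes tested passed, beside 0.523% of 27163. In whole cerebellum, more or fewer expressing cells and more or less RNA per cell cannot be told apart.

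**Figure D1:**
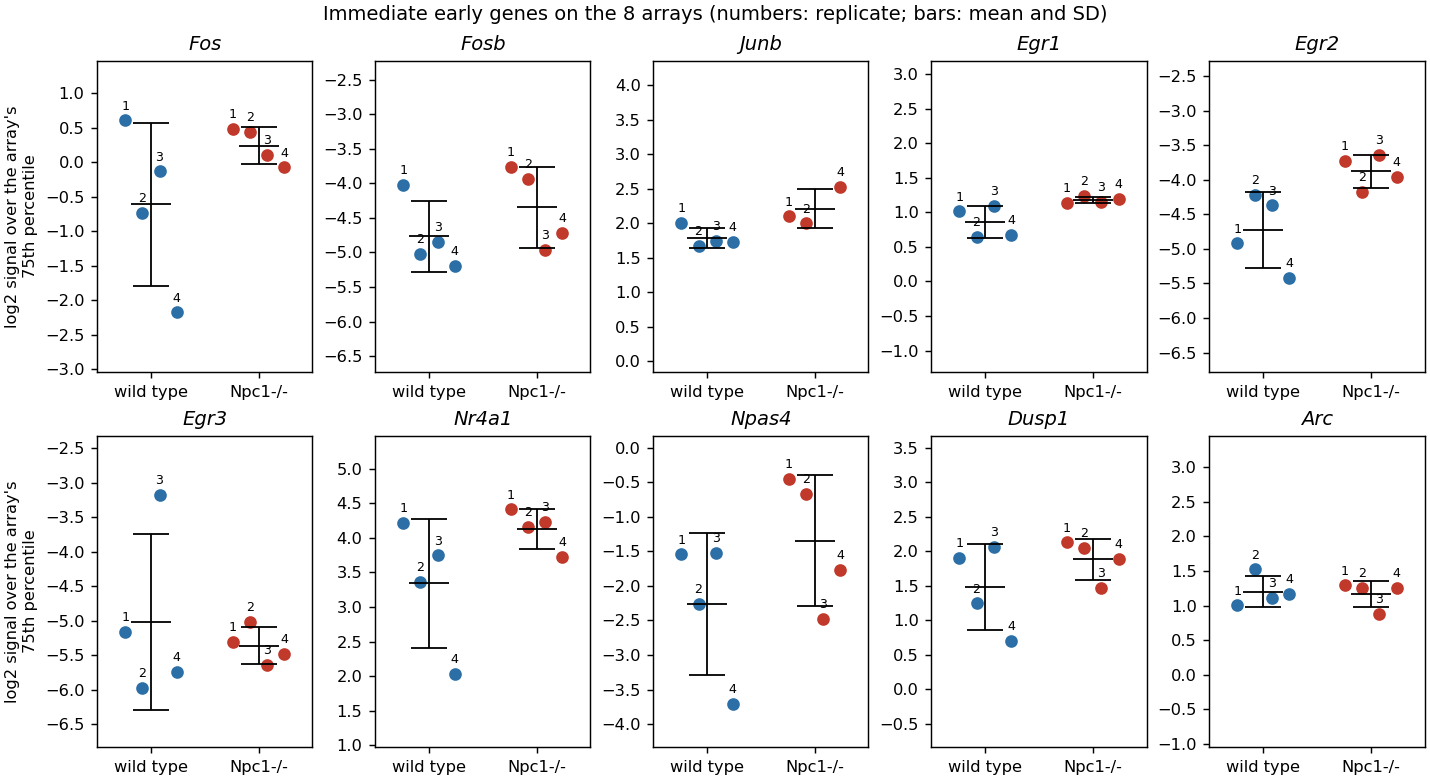
Log2 signal over the array's 75th percentile (vertical axes, all of equal span) for the 10 genes on the 4 wild-type (blue) and 4 Npc1-/- (red) arrays, numbered by replicate, with the mean and SD of each genotype. Wild-type replicate 4 is the lowest array for Fos, Fosb, Egr2, Nr4a1, Npas4 and Dusp1; the genotypes are separate for Egr1 and Egr2 only.

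The AP-1 factors are leucine zipper proteins: Fos and Fosb proteins pair with Jun proteins such as Junb to bind DNA. Fos (probe at chr12:83478431-83478490, mm7, the build of all probe positions here) gave signals of 0.48, 0.43, 0.11 and -0.08 on Npc1-/- replicates 1 to 4, and of 0.60, -0.74, -0.14 and -2.18 on wild-type replicates 1 to 4. The highest and the lowest Fos signal were both on wild-type arrays, and the Npc1-/- arrays lay between them. Their means differed by 0.85 ± 0.51 (log2, SE; 95% interval -0.33 to 2.025; adjusted p = 0.752, limma), 1.80-fold. Without wild-type replicate 4, the lowest by 1.44, the difference was 0.33 ± 0.31, and with the slide as a block it was 0.40 ± 0.31. It was 1.655 ± 0.54 with array weights, which gave wild-type replicate 4 the highest weight, and 1.254 ± 0.44 without wild-type replicate 1. Within slides 2, 3 and 4 it was 0.57, 0.94 and -0.50, each against 1 wild-type array.

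Fosb (chr7:16985502-16985561) gave -3.77, -3.93, -4.96 and -4.72 on the Npc1-/- arrays and -4.02, -5.02, -4.85 and -5.19 on the wild-type arrays. In each genotype the arrays split into high and low ones, with Npc1-/- replicates 1 and 2 and wild-type replicate 1 high, and the genotypes overlapped. The difference was 0.42 ± 0.34 (adjusted p = 0.752, limma); on wild-type replicate 2 the probe was not well above background. It was 0.23 without Npc1-/- replicate 1, 0.67 without wild-type replicate 1, and 0.18 with normexp background correction and quantile normalization.

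Junb was measured by 2 probes on chromosome 8 whose positions overlap by 22 bases. The brighter probe (chr8:83563097-83563156) gave 2.10, 2.00 and 2.53 on Npc1-/- replicates 1, 2 and 4, its spot on replicate 3 being marked as an outlier and left out, and 2.00, 1.66, 1.75 and 1.73 on the wild-type arrays. The groups touched: Npc1-/- replicate 2 and wild-type replicate 1 were level. The difference was 0.42 ± 0.16 over 3 and 4 arrays (95% interval 0.06 to 0.79; unadjusted p = 0.0292, adjusted p = 0.573, limma). Without Npc1-/- replicate 4, the highest array, it was 0.26 ± 0.14 (unadjusted p = 0.0984, limma). The other probe (chr8:83563059-83563118) gave 1.30, 1.23, 1.38 and 1.31 against 1.01, 0.59, 1.22 and 0.86. Here every Npc1-/- array was above every wild-type array, the closest by 0.01, and the difference was 0.39 ± 0.14 (adjusted p = 0.604 over all probes, limma).

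The Egr genes encode zinc finger factors that bind the GC-rich motif given above; Egr1 is widely used as a marker of active neurons, and Egr2 also drives myelination by Schwann cells. Egr1 gave 1.14, 1.24, 1.16 and 1.20 on the Npc1-/- arrays and 1.01, 0.64, 1.10 and 0.68 on the wild-type arrays. All 4 Npc1-/- values lay within 0.10 of each other and above the highest wild-type one, by 0.05. The difference was 0.33 ± 0.12 (95% interval 0.05 to 0.61; unadjusted p = 0.0276, adjusted p = 0.565, limma), 1.25-fold, and it was 0.27 ± 0.13 without wild-type replicate 4. Egr1 had the same sign within each of the 3 slides that held both genotypes: 0.14, 0.53 and 0.14 on slides 2, 3 and 4.

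Egr2 (chr10:67145376-67145435) is spotted 10 times on each array, and its mean signals were -3.73, -4.18, -3.64 and -3.96 on the Npc1-/- arrays and -4.92, -4.22, -4.37 and -5.42 on the wild-type arrays. The lowest Npc1-/- array was 0.04 above the highest wild-type array, wild-type replicate 2, where the probe was not well above background. The difference was 0.85 ± 0.26 (95% interval 0.25 to 1.455; unadjusted p = 0.0109, adjusted p = 0.375, limma), 1.81-fold. It was 0.63 ± 0.21 without wild-type replicate 4 and 1.03 ± 0.25 without wild-type replicate 2, and 0.30 ± 0.12 with normexp background correction and quantile normalization. Within slides 2, 3 and 4 the Npc1-/- arrays were higher by 0.19, 0.37 and 1.28. Over the 19 other settings the adjusted p of Egr2 ran from 0.0764 to 0.834 in the 18 that tested it.

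Egr3 is measured near background. Its brighter probe (chr14:64726656-64726715) gave -5.30, -5.02, -5.64 and -5.48 on the Npc1-/- arrays and -5.16, -5.98, -3.18 and -5.74 on the wild-type arrays, and was well above background on 6 of 8. One array, wild-type replicate 3, stood 1.98 above the next wild-type value, and the groups overlapped. The difference of -0.34 ± 0.55 (adjusted p = 0.849, limma) became 0.27 without that array. The second probe, 3152 bases away, was not well above background on any array, and no value is given for it.

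Nr4a1 (Nur77) is an orphan nuclear receptor whose protein acts without a known hormone. Its probe (chr15:101260484-101260543) gave 4.41, 4.16, 4.24 and 3.72 on the Npc1-/- arrays and 4.22, 3.36, 3.75 and 2.03 on the wild-type arrays. Wild-type replicate 1 was as high as the Npc1-/- arrays, replicates 2 and 3 were near the lowest of them, and replicate 4 was far below. The difference was 0.79 ± 0.42 (95% interval -0.17 to 1.753; adjusted p = 0.752, limma), and 0.36 ± 0.24 without wild-type replicate 4. It was 1.462 ± 0.44 with array weights and 1.085 ± 0.39 without wild-type replicate 1. Within slides 2, 3 and 4 it was 0.41, 0.71 and 0.01.

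Npas4 is a basic helix-loop-helix factor known to answer calcium entry in neurons in particular. It gave -0.46, -0.67, -2.47 and -1.77 on the Npc1-/- arrays and -1.54, -2.26, -1.52 and -3.71 on the wild-type arrays (chr19:4879639-4879698). Npc1-/- replicates 1 and 2 were the highest of the 8, wild-type replicate 4 was the lowest, and the other 5 arrays of both genotypes were mixed. The difference was 0.92 ± 0.59 (95% interval -0.44 to 2.272; adjusted p = 0.752, limma), and 0.43 ± 0.49 without wild-type replicate 4. With array weights it was 1.925 ± 0.59.

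Dusp1 encodes a phosphatase that switches off MAP kinases, and thus part of the signal that induces it. It gave 2.13, 2.04, 1.47 and 1.89 on the Npc1-/- arrays and 1.90, 1.24, 2.06 and 0.70 on the wild-type arrays (chr17:24690398-24690455). Npc1-/- replicate 3 fell among the wild-type values, and wild-type replicates 1 and 3 among the Npc1-/- values. The difference was 0.40 ± 0.30 (adjusted p = 0.752, limma), and 0.15 ± 0.24 without wild-type replicate 4. With array weights it was 0.8649 ± 0.28.

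Arc encodes a synaptic protein that helps remove glutamate receptors from the membrane. It gave 1.29, 1.25, 0.88 and 1.25 on the Npc1-/- arrays and 1.00, 1.52, 1.11 and 1.16 on the wild-type arrays (chr15:74749717-74749776). Arc was the member with the smallest difference, -0.03 ± 0.14 (95% interval -0.36 to 0.30; adjusted p = 0.952, limma). Wild-type replicate 4, the low array for 6 of the other genes, was in the middle for Arc, and wild-type replicate 2 was the highest.

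**Figure D2:**
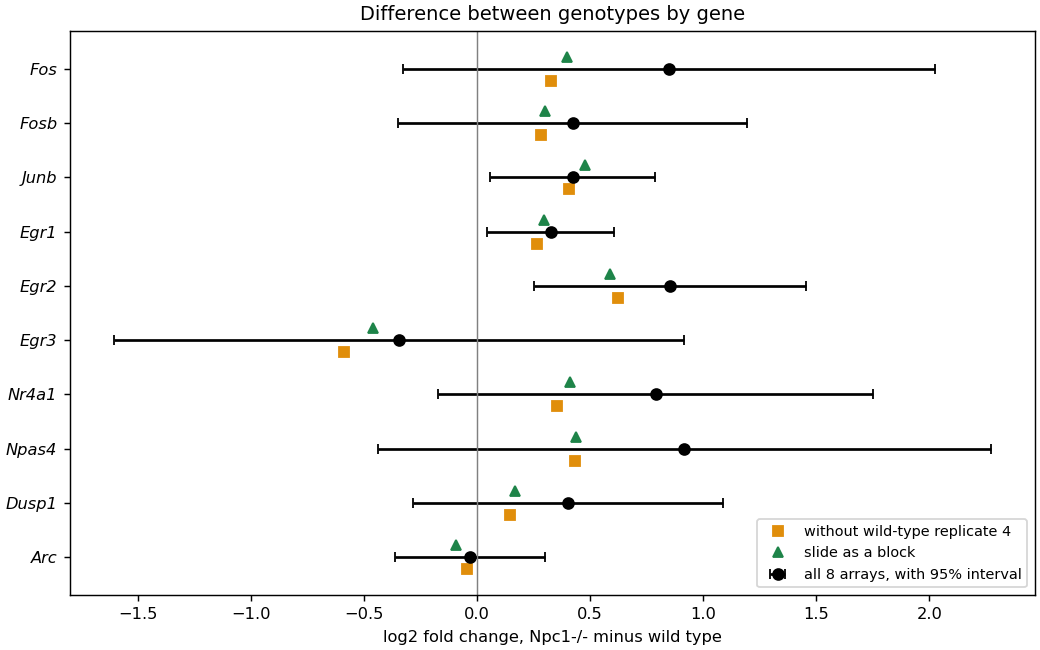
Log2 fold change (Npc1-/- minus wild type, horizontal axis) of each gene over all 8 arrays with its 95% interval (black; 7 arrays for Junb), without wild-type replicate 4 (orange) and with the slide as a block (green). For Fos, Fosb, Egr2, Nr4a1, Npas4 and Dusp1 both other settings lie closer to 0, while Junb and Egr1 move little under these settings. Array weights, not drawn, gave larger differences for Fos (1.655), Fosb (0.8008), Egr2 (1.171), Nr4a1 (1.462), Npas4 (1.925) and Dusp1 (0.8649). The intervals of Junb, Egr1 and Egr2 lie above 0, before any adjustment for the number of genes.

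The 10 genes varied more between arrays of 1 genotype than most genes. Their median within-genotype SD was 0.52 (log2), against 0.20 over all genes tested, and 4 of them (Npas4, Egr3, Fos and Nr4a1) were above the level that 90% of genes stay under. By percentile among all genes, Npas4 was at 98, Egr3 at 97.3, Fos at 96.6 and Nr4a1 at 93.9. Fosb was at 89.6, Dusp1 at 86.8 and Egr2 at 83.5, while Junb (58.1), Arc (53.5) and Egr1 (35.6) lay nearer the middle. Between the lowest and the highest array, Npas4 differed 9.53-fold and Fos 6.87-fold, but Arc 1.56-fold and Egr1 1.51-fold. Without wild-type replicate 4 these were 4.05-fold for Npas4 and 2.53-fold for Fos, with Arc and Egr1 as before. Without wild-type replicate 4 the percentiles were 93 for Npas4, 86.4 for Fos and 78.2 for Nr4a1.

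Replicate spots show how much of this spread lies within an array. Fos is spotted 10 times on each array, and the SD between its spots was 0.07 (log2, root mean square over arrays; 0.04 to 0.12 on single arrays), against 0.85 between arrays of 1 genotype, 13.1 times as much. Without wild-type replicate 4 the SD between arrays was 0.51, 7.62 times that between spots. On wild-type replicate 4 the 9 usable Fos spots ran from -2.25 to -2.08, and on wild-type replicate 1 the 10 spots ran from 0.55 to 0.66. For Egr2 the SD between spots was 0.17 and that between arrays 0.42, 2.53 times as much. The Fos difference between wild-type arrays thus lay outside the spread of spots; spots share 1 RNA sample and 1 labelling, so they do not measure the error of either.

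**Figure D3:**
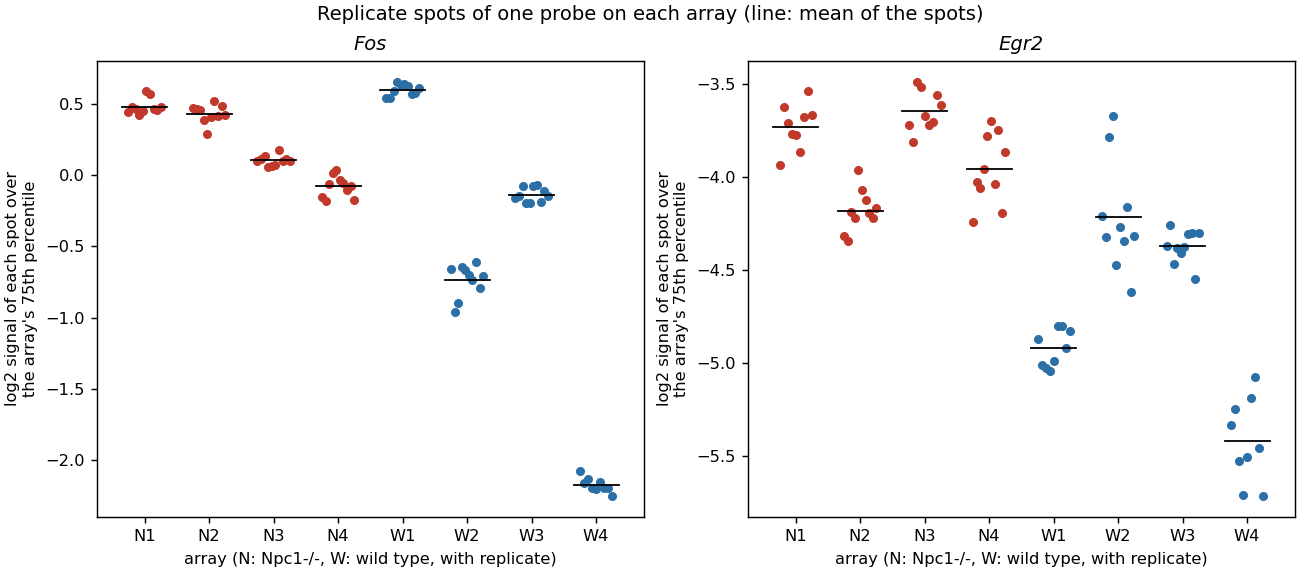
Log2 signal of every usable spot of the Fos and Egr2 probes (vertical axes, over the array's 75th percentile) on each array, with the mean of the spots as a line; red is Npc1-/- and blue wild type. The Fos spots of wild-type replicate 4 lie near -2.18 in a tight group, below those of all other arrays.

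Which arrays were high was partly shared among the genes. Wild-type replicate 4 was the lowest array for 6 of the 10 genes and among the lowest 2 for 9, with Arc as the exception. Wild-type replicate 2 was the lowest for 3 and among the lowest 2 for 7, although Fosb, Egr2 and Egr3 were not well above background there. Over the 7 genes well above background on all arrays, wild-type replicate 4 was the lowest for 4 and among the lowest 2 for 6, and wild-type replicate 2 the lowest for 2 and among the lowest 2 for 5. Npc1-/- replicate 1 was the highest for 4 of the 10. The shares of all genes lowest or highest on these arrays are not given, so the counts describe the 10 genes only. Expressed as the median over the 10 genes of the deviation from each gene's mean, the arrays stood at 0.51, 0.29, -0.21 and 0.09 (Npc1-/- replicates 1 to 4) and at 0.13, -0.41, 0.03 and -0.80 (wild-type replicates 1 to 4). The genotypes overlapped: Npc1-/- replicate 3 was below wild-type replicates 1 and 3.

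Fos was compared with each of the other 9 genes across the arrays (9 relations, exact permutation of pairings, two-sided, Benjamini-Hochberg adjusted). Nr4a1 followed Fos most closely, with Pearson r = 0.983 (exact p = 0.000595, adjusted 0.00536) and Spearman rho = 0.857 (exact p = 0.0107, adjusted 0.0481) over 8 arrays. Without wild-type replicates 4 and 2, the 2 arrays farthest from the median of Fos, r was 0.827. Fosb gave r = 0.757 (exact p = 0.013, adjusted 0.0292) and rho = 0.857 (exact p = 0.0107, adjusted 0.0481), with r = 0.89 without those 2 arrays. These were the relations that passed by both measures.

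Dusp1 (r = 0.894, exact p = 0.00875, adjusted 0.0263) and Npas4 (r = 0.857, exact p = 0.00672, adjusted 0.0263) passed by Pearson r only. Their rho was 0.643 each (exact p = 0.0962, adjusted 0.173), and without the 2 arrays r was 0.228 for Dusp1 and 0.542 for Npas4. The Dusp1 relation therefore rests on those 2 arrays. Egr1 (r = 0.784, exact p = 0.0284, adjusted 0.0511; rho = 0.452, exact p = 0.267) did not pass and had r = -0.241 without them. Egr2 (r = 0.617, exact p = 0.106), Junb (r = 0.469 over 7 arrays, exact p = 0.282), Egr3 (r = 0.274, exact p = 0.408) and Arc (r = -0.21, exact p = 0.58) did not pass either. With each genotype's mean removed, r with Fos was 0.979 for Nr4a1, 0.868 for Dusp1, 0.814 for Npas4 and 0.7 for Fosb. Slides and scan days hold 1 to 5 arrays, too few to give r within them.

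**Figure D4:**
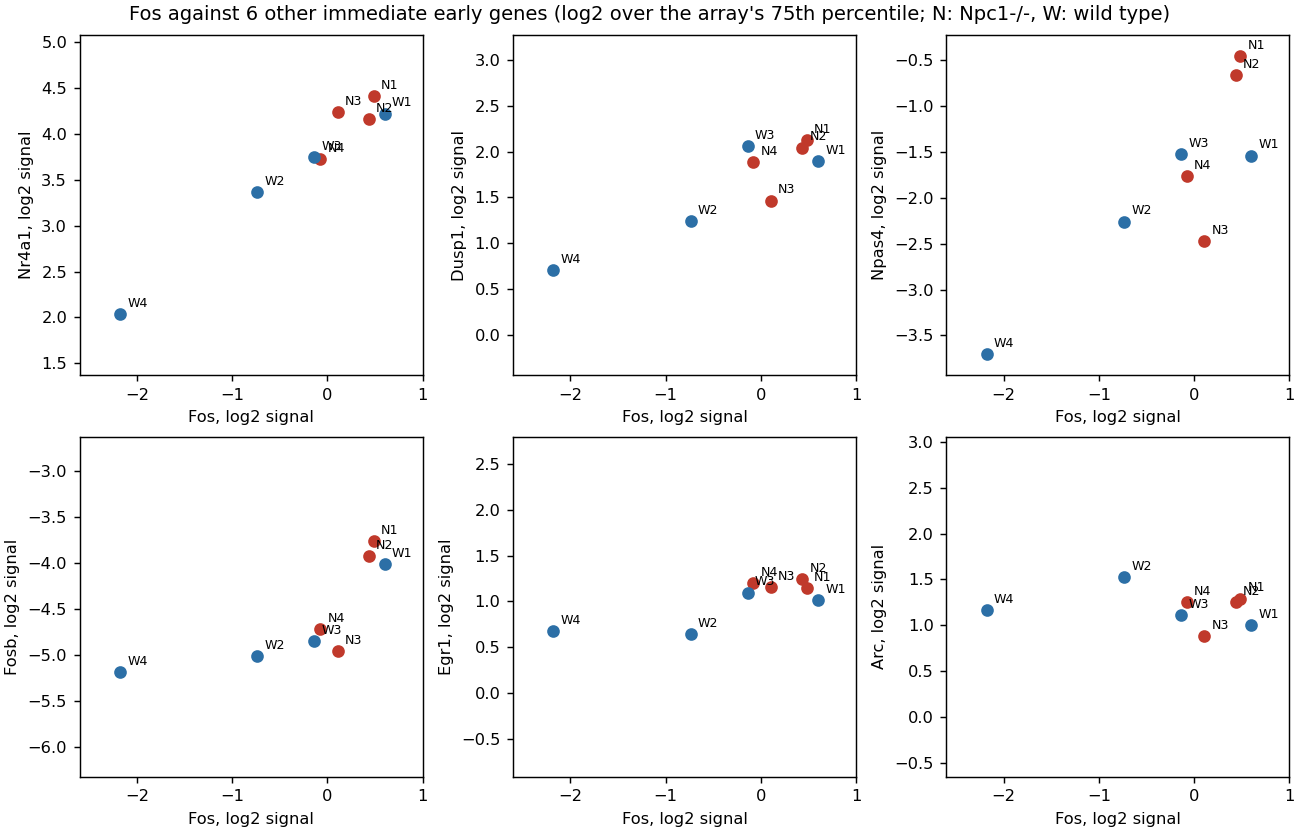
Log2 signal of Fos (horizontal axes) against 6 other genes (vertical axes, equal spans) on the 8 arrays, red for Npc1-/- (N) and blue for wild type (W), numbered by replicate. Nr4a1 is lowest on the arrays where Fos is lowest, wild-type replicates 4 and 2, whereas Arc is highest on wild-type replicate 2.

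Other genes of the same response were examined from a wider list. Of 36 further immediate early genes, 33 were tested (Fosl1, Nr4a3 and Ptgs2 were too dim) and 0 passed in either direction (limma). At an unadjusted p under 0.05, 5 were higher and 1 lower, beside 5.09% of all genes higher and 416 of 17984 lower. The median difference was 0.15, and 26 of 33 were positive, beside 46.6% of all genes. Under median centring, which lowered all differences, the median was 0.05 with 18 of 33 positive, and without wild-type replicate 4 it was 0.07. Of the 6 with the highest signal, Klf2, a zinc finger factor, differed by 0.21 ± 0.29, Jund, an AP-1 partner, by -0.21 ± 0.14 and Gadd45g, a growth arrest and stress protein, by 0.15 ± 0.16. Rgs2, which shortens G protein signals, differed by 0.15 ± 0.17, Ier5 by -0.17 ± 0.16 and Egr4, the fourth Egr factor, by 0.05 ± 0.21, all with adjusted p of 0.752 or more (limma).

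Atf3, a stress-induced bZIP factor, came nearest to the threshold in this list and is named after its values were seen. It gave -1.76, -1.95, -2.02 and -1.84 on the Npc1-/- arrays and -2.36, -2.62, -2.76 and -3.08 on the wild-type arrays. The groups did not overlap, and the difference was 0.81 ± 0.15 (adjusted p = 0.0649, limma), 1.76-fold. It passed in 3 of 19 other settings: with normexp background correction and quantile normalization (0.62 ± 0.12, adjusted p = 0.049), with array weights (0.99 ± 0.16, adjusted p = 0.0187) and without wild-type replicate 1 (0.93 ± 0.14, adjusted p = 0.0375). Over all 19 the adjusted p ran from 0.0187 to 0.448.

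The steps above and below these genes showed no tested member past the threshold. Elk1, Elk4 and Crtc1 (upstream), Vgf and Gpr3 (effectors) and Dusp5 (phosphatases) were listed but not tested. Among 31 tested kinases and factors upstream, 0 passed (limma; 0 at an unadjusted p under 0.05), with a median of -0.05; the 2 with the highest signal were the calcineurin subunit Ppp3ca (-0.17 ± 0.11) and the activity-regulated factor Mef2d (0.10 ± 0.09). Among 13 activity-regulated effector genes, 0 passed (0 at an unadjusted p under 0.05), with a median of -0.01; those with the highest signal were Rheb, the activator of mTORC1 (-0.09 ± 0.12), and Nrn1, a neuritin (0.09 ± 0.18). Among 10 other MAP kinase phosphatases 0 passed, 1 was lower at an unadjusted p under 0.05 (Dusp16, -0.24 ± 0.10), and 8 of 10 were negative; those with the highest signal were Dusp8 (-0.10 ± 0.12) and Dusp6 (0.04 ± 0.16).

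Lists that respond to stress hormones, heat and low oxygen were read array by array, since handling and dissection can move them. Of 11 glucocorticoid-responsive genes 0 passed (0 at an unadjusted p under 0.05), with a median of 0.35 and 10 positive; the metallothioneins Mt2 (0.35 ± 0.24) and Mt1 (0.38 ± 0.22) had the highest signal. The median was 0.19 without Npc1-/- replicate 1, with 7 of 11 positive, and also 0.19 without Npc1-/- replicate 2. Their median deviation was 0.49, 0.45, -0.24 and -0.31 on the Npc1-/- arrays and -0.42, -0.003, 0.38 and -0.45 on the wild-type arrays. Npc1-/- replicates 1 and 2, high for the immediate early genes, were high here too, as was wild-type replicate 3, which was not; wild-type replicates 1 and 4 were both low here although they lie at opposite ends for Fos.

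Of 7 heat shock genes 0 passed (0 at an unadjusted p under 0.05), with a median of 0.11, and Hsp90aa1 (0.01 ± 0.10) and Hspa8 (0.01 ± 0.16) had the highest signal. That median was 0.0064, with 4 of 7 positive, without Npc1-/- replicate 1, and 0.0014 under median centring. Their deviation was again highest on Npc1-/- replicates 1 (0.47) and 2 (0.43) and lowest on Npc1-/- replicate 3 (-0.40), and it was -0.17 on wild-type replicate 4. Of 9 hypoxia-responsive genes 0 passed and 1 was higher at an unadjusted p under 0.05 (Adm, 0.56 ± 0.20); those with the highest signal were Slc2a1 (0.16 ± 0.14) and Bnip3 (-0.08 ± 0.14). The part of these lists in the values of the immediate early genes was not tested.

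**Figure D5:**
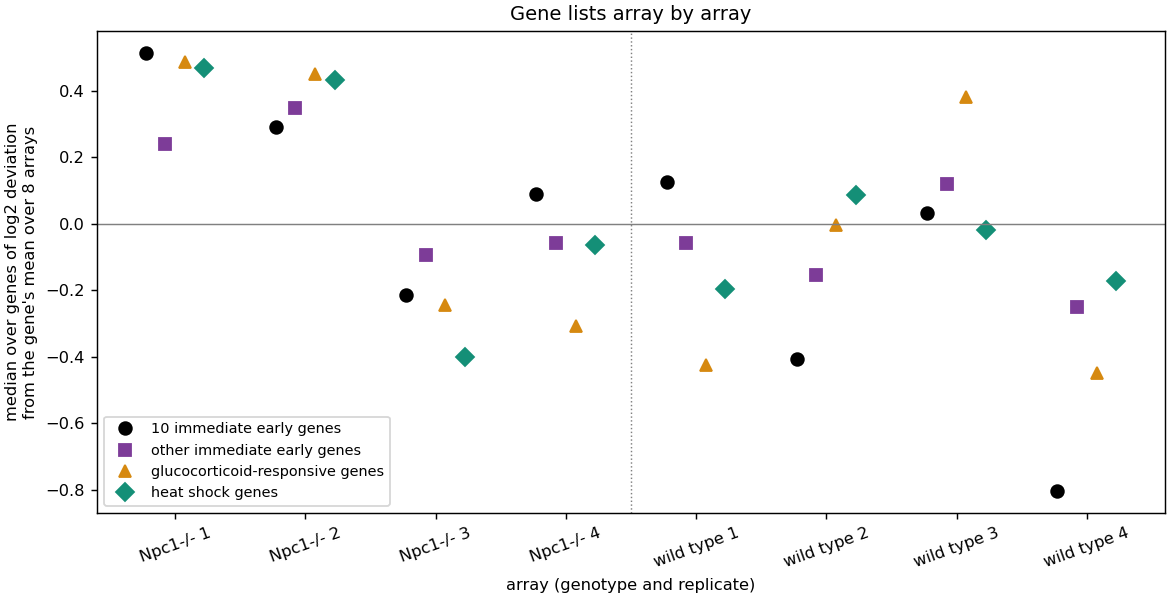
Median over the genes of a list of the log2 deviation from each gene's mean over the 8 arrays (vertical axis), for the 10 immediate early genes (black), 33 others (purple), 11 glucocorticoid-responsive genes (orange) and 7 heat shock genes (green), on each array. Npc1-/- replicates 1 and 2 are high in all 4 lists. Wild-type replicate 4 is the lowest array for the 10 genes (-0.80), the 33 others (-0.25) and the glucocorticoid-responsive genes (-0.45), but not for the heat shock genes (-0.17).

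Outside these lists, the named genes whose pattern over the 8 arrays, with each genotype's mean removed, was most like the mean pattern of the 10 were Vegfc (r = 0.972), Nhsl1 (0.96), Sart3 (0.94), Clip3 (0.94), Pde12 (0.936) and Zfyve26 (0.925). They are the highest among all named genes tested, and the values are a description. Their ranges were small: Vegfc, a lymphatic growth factor, spanned 0.64 (log2) and Sart3 0.19 over the 8 arrays, against 2.78 for Fos. Among the 10 genes, likeness to the mean of the other 9 was 0.979 for Dusp1, 0.895 for Npas4, 0.888 for Fos and 0.826 for Nr4a1, but -0.01 for Junb and -0.14 for Arc.

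Cell type markers were set beside these values. Microglia markers were positive in 10 of 10, and 4 passed the threshold (for example Cd68, 2.08 ± 0.13, adjusted p = 0.00045, limma). Their median difference was 0.65, and 8 were higher at an unadjusted p under 0.05, beside 5.09% of all genes. Their log2 summed signal was 4.62 to 4.96 in Npc1-/- against 2.69 to 3.23 in wild type. Oligodendrocyte markers were negative in 8 of 8 with 0 past the threshold (7.90 to 8.18 against 8.29 to 8.68). Of them 6 were lower at an unadjusted p under 0.05, beside 416 of all 17984 genes tested. The genotypes did not overlap for 5, all lower in Npc1-/-, beside 351 of all genes in that direction. Granule cell markers were negative in 8 of 8, with 0 past the threshold (6.59 to 6.87 against 6.79 to 7.11), and so were Purkinje cell markers (7.69 to 7.89 against 7.81 to 8.16); all 16 of these markers were tested, and at an unadjusted p under 0.05, 3 granule and 0 Purkinje cell markers were lower. Markers of meninges and fibroblasts had higher summed signals in Npc1-/- (4.35 to 4.73 against 4.04 to 4.16), with 0 of 8 past the threshold. Of these 8 markers 6 were higher at an unadjusted p under 0.05, beside 5.09% of all genes. Of 8 astrocyte markers 0 passed and 5 were positive; Gfap, an intermediate filament protein named after its values were seen, came nearest (1.08, adjusted p = 0.0516, limma). Of 4 blood cell markers tested 0 passed (7.63 to 8.25 against 7.09 to 8.30). Their summed signal was highest on wild-type replicate 4 and lowest on wild-type replicate 1, the arrays at opposite ends for Fos. That order was not kept by Npc1-/- replicate 2 (8.25, with Fos at 0.43) or wild-type replicate 2 (7.21, with Fos at -0.74). Choroid plexus markers were lowest on Npc1-/- replicate 3 (1.37 against 2.77 to 3.84 on the other arrays), the Npc1-/- array with the lowest median for the 10 genes. The part of these cell types in the values of the immediate early genes was not tested.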

How the data were processed

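The deposited Agilent files hold scanner readings; the submitters' processing notes name Agilent Feature Extraction 9.5. Per the file headers, the processed intensity of a spot has its background removed and a spatial trend corrected, with no scaling across arrays, and 0 or 1 flags mark spots well above background or outlying. Total RNA (500 ng an array) was labelled with Cy3, per the labels' protocols. Groups and replicate numbers came from the labels; no label says which slide neighbours shared a litter or an extraction, and the p-values reflect only how far these arrays vary.

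The processed signals of non-control spots were divided by their 75th percentile on the array and put on a log2 scale, outlier spots were dropped and spots of a probe averaged. A probe was kept if 4 or more of 8 arrays showed it well above background (27163 of 41174), and the brightest probe stood for its gene (17984 genes). Symbols were updated through RefSeq (GRCm38.p6: 22951 probes by accession, 6659 by symbol, 3097 by synonym, and 8467 kept the file's name). The test between genotypes was that of limma 3.58.1, run in R 4.3.3 (lmFit, eBayes, two-sided, genotype only, Benjamini-Hochberg over all genes, threshold 0.05). On simulated data with 17967 genes, changes were put into genes drawn at random, each with its own SD. The fit recovered 74% of log2 changes of 1 and 96% of changes of 2, and it also called 15 genes into which no change was put. The members vary more than most genes (median SD 0.52 against 0.20), so these shares cannot be carried over to them. Correlations were permuted exactly in Python 3.11.15, and plots drawn with matplotlib 3.10.9.

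Named genes are all 10 members and Npc1; in each gene list apart from the cell type markers, the 2 with the highest signal (6 for the other immediate early genes), since none passed; Cd68 as an example of those that passed among cell type markers, which are otherwise given by counts and ranges; and the 6 genes nearest in pattern. Atf3, Dusp16, Adm and Gfap were added after their values were seen. The members and lists were chosen with earlier results of these data known. Alternatives were 2 other background or scaling methods, median centring, 2 filters, slide, scan day and replicate blocks, array weights, probe means, and leaving out each array. The Illumina table was not used here.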

Additional observations from a re-analysis of the deposited data

Results flagged for a closer look

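Each gene's 4 values per genotype were searched for a single array far from the other 3 (gap to the nearest array over the group's range, Dixon's 95% level), in 19 groups of 4. Arc on Npc1-/- replicate 3 was the 1 value found, at 0.88 (log2 over the array's 75th percentile), against 1.25 to 1.29 on the other 3 Npc1-/- arrays. Chance gives about 1 such value in 20 groups. The low Fos, Nr4a1 and Npas4 values of wild-type replicate 4 and the high Egr3 value of wild-type replicate 3 did not reach that level.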

How the results depend on the processing

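None of the 10 genes passed the threshold under any of the 19 alternatives in which it was tested; Fosb, Egr2 and Egr3 were not tested under the filter for all 8 arrays. Their median difference was 0.42 and ran from 0.3048 to 0.6088 when 1 array was left out (0.3048 without wild-type replicate 4); with array weights, which gave wild-type replicate 4 the highest weight, it was 0.8329. The count of other immediate early genes past the threshold, 0, became 1 (Atf3) with normexp and quantile normalization and with array weights, and ran from 0 to 1 when 1 array was left out. Egr3 (-0.34) turned to 0.19 with array weights and ran from -0.6654 to 0.2675 when 1 array was left out, positive without wild-type replicate 3. Arc turned to 0.008026 with quantile normalization, 0.02189 with array weights and, over a range of -0.09766 to 0.07624 when 1 array was left out, to 0.06457 without Npc1-/- replicate 3 and 0.07624 without wild-type replicate 2. The cause was not tested. Median centring shifted the median of all genes from -0.02 to -0.12 and that of the 10 genes to 0.33. Over all genes, 132 rose and 6 fell; with the slide as a block the counts were 37 and 1, and with array weights 227 and 53. Median centring gave 69 and 6, quantile normalization 82 and 5, no filter 56 and 3, and a filter for all 8 arrays 83 and 5. Leaving out 1 array gave 52 (without Npc1-/- replicate 4) to 144 rises, and leaving out the 3 arrays on the positive side of the principal component, chosen after seeing the data, 14 and 1. Same-numbered arrays correlated at 0.149, 0.0383, -0.445 and 0.201 in their deviations, and no label ties a number to a litter or day, so the numbers were not taken as pairs; with the replicate block 26 genes rose and 1 fell, the members' median was 0.4164, and 0 of the 10 passed (Nr4a1 0.79 ± 0.26, unadjusted p = 0.0246, adjusted p = 0.557, limma). Low signal limits Egr3, and Fosb and Egr2 on wild-type replicate 2.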
